A study of Mus musculus with 5 samples.

Results

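The genes described here are 36 mouse genes of the unfolded protein response, of protein folding and of protein degradation at the endoplasmic reticulum (ER), taken from the 32793 gene rows of the count and TPM tables. The members were taken by name, from a list drawn up with earlier results of these data known. All 36 have a row, and 35 passed the filter on low counts and were tested. Derl3 was the exception, with 6 and 8 counts in the mutant libraries and 8, 8 and 17 in the wild-type libraries. The genes were measured by bulk sequencing of polyadenylated RNA in mouse colon spheroids, a culture of gut epithelium grown as hollow balls of cells. There were 2 libraries from cultures with dimerization-deficient alleles of both Notch1 and Notch2 (Notch1DD and Notch2DD, together NDD), titled RA by the submitters, and 3 wild-type (WT) libraries. Both groups were of a mixed strain background, mainly C57Bl6 with some FVB. The alleles stop the Notch intracellular domain from pairing with itself on DNA, and the series title places them in the maintenance of intestinal homeostasis. The labels give no age, treatment or number of animals, and do not say that libraries came from separate animals, so p-values measure only the spread between these libraries, which may be technical.

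The ER folds proteins that enter the secretory route. When unfolded protein collects there, 3 sensors in its membrane respond: IRE1 (genes Ern1 and Ern2) cuts Xbp1 mRNA so that an active factor is made, ATF6 is cleaved in the Golgi to release a factor, and PERK (gene Eif2ak3) slows translation while favouring that of ATF4. XBP1 and ATF6 are known to drive genes for chaperones and degradation. ATF4 drives genes for amino acid supply and the factor CHOP (gene Ddit3), and it also answers amino acid shortage and other stresses through other kinases. In the colon, mucus-secreting goblet cells carry the heaviest folding load, and IRE1 beta (gene Ern2) is known from mucus-producing epithelia.

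Libraries held 19192389 to 23064000 counts, so a count of 0 allows up to 0.130 to 0.156 CPM (counts scaled to library size) at 95% confidence, counting error only. NDD replicate 2 stood apart: its Spearman correlations of log2 CPM with the other libraries over all 13501 tested genes were 0.939 to 0.967, against 0.974 to 0.987 among the remaining 4 libraries. Values without it are given beside the results they change most. Colon epithelium markers summed to 14653 to 16182 TPM (a level per transcript length, scaled to the library) in NDD and to 14396 to 15588 TPM in WT. Fibroblast markers (10 genes, 2 at 0 in all libraries) summed to 3.98 and 8.91 TPM in NDD and 1.87 to 4.33 TPM in WT. Most of the NDD sums was 1 gene, Pdgfrb, at 2.98 and 8.17 TPM in NDD and 1.09 to 2.12 TPM in WT. Vim was at 0.75 and 0.57 TPM in NDD and 0.6 to 1.9 TPM in WT. Immune markers (9 genes, 1 at 0 throughout) summed to 3.31 and 4.21 TPM in NDD and 4.95 to 8.41 TPM in WT, and endothelial markers (6 genes, 2 at 0 throughout) reached at most 2.96 TPM. Of the 8 plasma cell markers, only Sdc1 and Prdm1, which epithelium also makes, passed the filter on low counts, Mzb1 and Tnfrsf17 were at 0, and Jchain averaged 0.016 TPM. The 11 goblet markers summed to 2872 and 2826 TPM in NDD and to 1823 to 2341 TPM in WT. For 4 of the 11 both NDD libraries lay above every WT library in CPM, against 15.8% of all tested genes. Muc2 and Tff3 were highest in a WT library. The 15 proliferation markers summed to 1671 TPM in NDD replicate 1, 633 TPM in NDD replicate 2 and 1620 to 1888 TPM in WT. The part of the goblet and proliferation differences in the results below was not tested. Notch1 and Notch2 were transcribed in both groups, with a log2 fold change, NDD over WT (below, log2FC), of -0.17 (SE 0.14) and -0.43 (SE 0.26). The alleles change the protein, so these levels do not check the genotype.

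Promoter sequence is shown first for the members whose start regions hold a known stress element, because the values are set beside it further on. Sequences are RefSeq promoter windows of build GRCm38.p6, the assembly called mm10, from 250 bases before to 50 bases after a gene's start, and 30 of the 36 members had one. The ER stress element is CCAAT followed, after any 9 bases, by CCACG, and is the known site of ATF6 with NF-Y. Searched on both strands, it was in the windows of 9 of the 30 members (30.0%) and in 0.137% of the 27025 genes with a window (0.119% of all 32851 windows). Members were listed as genes of this response, so a higher share of its known elements among them, here and below, is no finding. The stretches below lie upstream of the start, read 5′ to 3′ on the gene's strand, with the element in capitals. It reads as its reverse complement in Calr and Creld2 and in the second copy of Hsp90b1.

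Hspa5, chr2:34772010-34772058, plus strand: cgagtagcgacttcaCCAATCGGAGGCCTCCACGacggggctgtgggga
Hsp90b1, chr10:86705518-86705671, minus strand: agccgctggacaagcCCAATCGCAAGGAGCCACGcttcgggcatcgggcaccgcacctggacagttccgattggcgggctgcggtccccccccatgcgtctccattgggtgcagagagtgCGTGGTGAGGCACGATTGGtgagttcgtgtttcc
Calr, chr8:84847060-84847108, minus strand: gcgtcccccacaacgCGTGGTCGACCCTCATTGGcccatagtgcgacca
Canx, chr11:50325785-50325833, minus strand: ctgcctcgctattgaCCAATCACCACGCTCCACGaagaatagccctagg
Pdia6, chr12:17266476-17266524, plus strand: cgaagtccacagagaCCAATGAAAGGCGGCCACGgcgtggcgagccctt
Creld2, chr15:88819505-88819553, plus strand: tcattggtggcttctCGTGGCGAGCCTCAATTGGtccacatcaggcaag
Dnajc3, chr14:118937812-118937860, plus strand: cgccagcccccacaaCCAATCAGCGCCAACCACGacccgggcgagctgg
Syvn1, chr19:6046517-6046565, plus strand: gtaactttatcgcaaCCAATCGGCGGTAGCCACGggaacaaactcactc

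The ninth member with this element was the untested Derl3. The composite site of ATF4 with C/EBP factors, searched as TGATGNAA on both strands, was in the windows of Asns, Chac1, Herpud1 and Trib3, which is 4 of 30 members (13.3%) against 4.51% of all genes with a window (3.97% of windows). In Trib3 it lay 15 bases after the start, where no stretch is shown. The other 3 are given in the same form, with the site in capitals. It reads as its reverse complement in Chac1 and Herpud1.

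Asns, chr6:7693210-7693247, minus strand: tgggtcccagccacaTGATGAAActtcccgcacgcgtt
Chac1, chr2:119351034-119351071, plus strand: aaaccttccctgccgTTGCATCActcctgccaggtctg
Herpud1, chr8:94386302-94386339, plus strand: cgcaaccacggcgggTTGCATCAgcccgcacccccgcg

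Herpud1 also held the second form of the ER stress element, ATTGG followed, after any 1 base, by CCACG, which was in 0.0365% of all windows and, among members, in Herpud1 and Dnajb11. The element shares the letters CCACG with the first form, and its ATTGG is the reverse complement of CCAAT. The stretch is shown because Herpud1 alone among the members had both this form and the ATF4 composite site.

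Herpud1, chr8:94386362-94386402, plus strand: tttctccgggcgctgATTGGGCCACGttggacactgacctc

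The letters TGACGTGG of the XBP1-type element were in 0.676% of all windows and in none of the 30 members' windows, which says only that these letters are not in these windows. A match describes the sequence and is not a measured binding site.

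No member passed the test between NDD and WT. For 5 of 6 ER chaperones both NDD libraries lay below every WT library, while outputs of the ATF4 and CHOP arm were above the WT range in NDD replicate 2 and within or below it in NDD replicate 1. In edgeR's quasi-likelihood test, 0 of the 35 tested members had an adjusted p under 0.05, where 0.0889% of all tested genes did (0.0667% higher and 0.0222% lower). DESeq2 and limma-voom also called 0. An unadjusted p under 0.05 was found for 4 members (11.4%), 2 higher and 2 lower, against 11.2% of all tested genes (6.49% higher and 4.68% lower), so the share among members was near the background. NDD and WT libraries were fully separated in CPM for 8 members (22.9%), 2 with NDD above and 6 with NDD below, against 32.0% of all genes (15.8% above and 16.2% below). The median log2FC of the 35 members was -0.04, with 14 above 0 and 21 below, and that of all tested genes was -0.0047. Summed over the 36 members, the level was 4063 and 3777 TPM in the NDD libraries and 4095, 4490 and 4690 TPM in the WT libraries. Both NDD sums lay below the lowest WT sum, NDD replicate 1 by a small margin. The ratio of the group means was 0.886. In bulk RNA, fewer cells of a kind and less RNA per cell cannot be told apart.

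**Figure D1:**
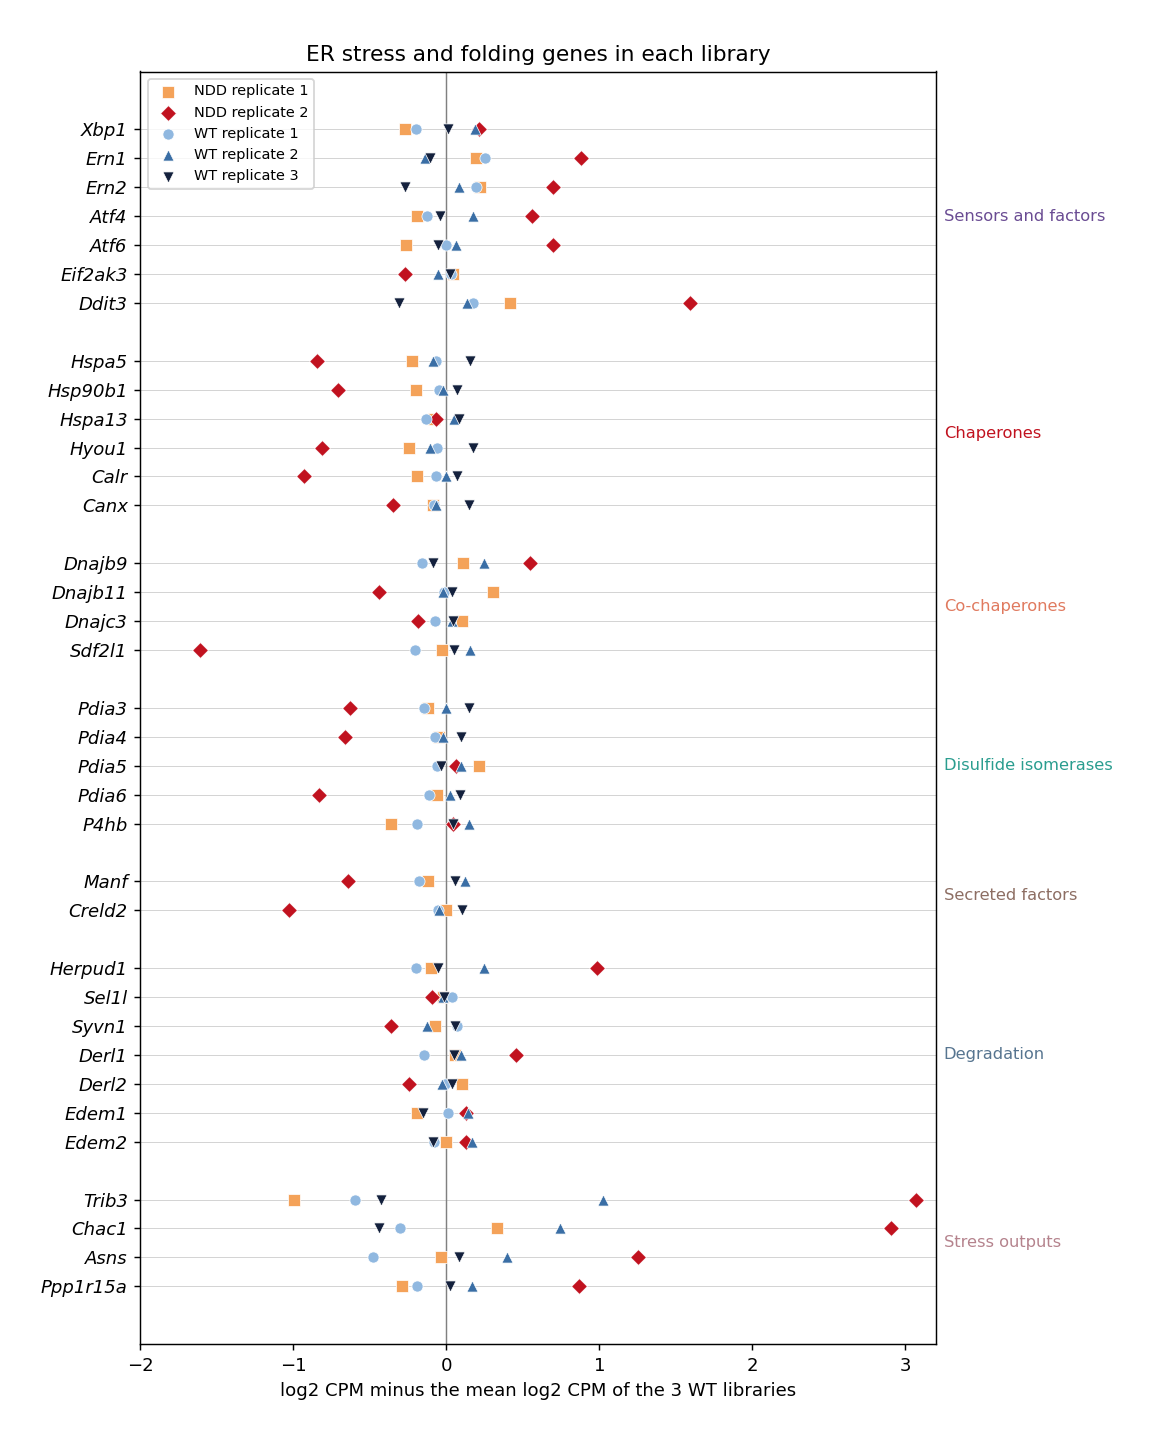
Each row is a tested member, ordered by role, and each symbol a library; the horizontal axis gives its log2 CPM minus the mean log2 CPM of the 3 WT libraries. NDD replicate 2 lies outside the WT range for 30 of the 35 genes, to the left for most chaperones and to the right for the stress outputs, while NDD replicate 1 is inside it for 15.

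The NDD libraries differed from each other in how far they lay from WT. NDD replicate 2 lay above the range of the 3 WT libraries for 13 members and below it for 17. Over all genes these shares were 38.1% and 38.6%. NDD replicate 1 lay above the WT range for 7 members and below it for 13, against 26.1% and 27.4% of all genes, and inside it for 15.

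The 7 sensors and transcription factors showed values in both directions, with a median log2FC of 0.29, and 0.056 without NDD replicate 2. Ddit3, which encodes CHOP, a factor linked to cell death under lasting stress, was at 5.46 and 12.5 CPM in the NDD libraries and at 4.61, 4.48 and 3.26 CPM in the WT libraries. Both NDD libraries lay above every WT library, NDD replicate 2 by far the more. The log2FC was 1.12 (SE 0.40, unadjusted p 0.0286, edgeR adjusted p 0.437), and it was 0.42 without NDD replicate 2. Ern2, the IRE1 beta sensor of mucus-producing epithelium, was at 43.1 and 59.98 CPM in NDD and at 42.1, 39.0 and 30.6 CPM in WT. The groups did not overlap, although NDD replicate 1 was barely above WT replicate 1. The log2FC of Ern2 was 0.47 (SE 0.21, edgeR adjusted p 0.460) and 0.22 without NDD replicate 2. Ern1, the IRE1 alpha sensor found in most cells, was at 29.9 and 48.2 CPM in NDD and at 31.1, 23.6 and 24.2 CPM in WT. Only NDD replicate 2 was above the WT range, and the log2FC was 0.57 (SE 0.24, edgeR adjusted p 0.456) and 0.20 without that library.

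Xbp1 had nearly equal group means. It was at 128.5 and 179.9 CPM in NDD and at 135.2, 176.5 and 155.8 CPM in WT, and the NDD libraries lay on either side of the WT range (log2FC -0.02, SE 0.19, and -0.26 without NDD replicate 2). Counts per gene do not separate the cut from the uncut Xbp1 mRNA, so IRE1 activity was not measured. Atf6 was at 59.2 and 115.2 CPM in NDD and at 70.97, 74.1 and 68.3 CPM in WT. The WT libraries were close together, and the NDD libraries were the lowest and the highest of the 5, so the fitted log2FC of 0.29 (SE 0.27) became -0.25 without NDD replicate 2. Atf4 was at 249.8 and 421 CPM in NDD and at 261, 322 and 276 CPM in WT, again with the NDD libraries at both ends (log2FC 0.23, SE 0.24, and -0.18 without NDD replicate 2). ATF4 is regulated mainly at translation, which these counts do not show. Eif2ak3, which encodes the PERK kinase, was at 43.0 and 34.6 CPM in NDD and at 42.7, 40.3 and 42.4 CPM in WT, with a log2FC of -0.11 (SE 0.15), and 0.056 without NDD replicate 2. Per transcript length, Atf4 was the most abundant of the 7 (mean 329 TPM), followed by Xbp1 (128 TPM), while the sensors Ern2 (24.6 TPM), Atf6 (16.98 TPM), Eif2ak3 (15.6 TPM) and Ern1 (13.4 TPM) and the factor Ddit3 (14.6 TPM) were at similar low levels.

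All 6 chaperones had a log2FC below 0, with a median of -0.47, and for 5 of them both NDD libraries lay below every WT library, as they did for 16.2% of all genes. None had an adjusted p under 0.05, and the median moved to -0.18 when NDD replicate 2 was left out and to -0.77 when NDD replicate 1 was. Hspa5, which encodes BiP, the HSP70 of the ER that also holds the sensors inactive, was at 433 and 282 CPM in NDD and at 483, 476 and 563 CPM in WT. The NDD libraries were the lowest, and the gap of NDD replicate 1 to the nearest WT library was smaller than the spread among WT libraries. The log2FC of Hspa5 was -0.51 (SE 0.21, unadjusted p 0.0514, edgeR adjusted p 0.450), and -0.21 without NDD replicate 2. Hsp90b1, which encodes GRP94, the HSP90 of the ER, was at 497 and 350.4 CPM in NDD and at 552, 563 and 600.5 CPM in WT. Again the groups did not overlap (log2FC -0.43, SE 0.18, unadjusted p 0.0483, edgeR adjusted p 0.446), and the value without NDD replicate 2 was -0.19. Hyou1, which recharges BiP with nucleotide, was at 164 and 111 CPM in NDD and at 187, 181 and 220.1 CPM in WT, lower in both NDD libraries (log2FC -0.51, SE 0.20, unadjusted p 0.0435, edgeR adjusted p 0.438), with -0.24 when NDD replicate 2 was left out.

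The lectin chaperones bind sugar chains on folding glycoproteins. Calr, the soluble one and the most abundant member per length (mean 781 TPM), was at 839 and 502 CPM in NDD and at 915, 956 and 1008 CPM in WT. Both NDD libraries were below the WT range, and the log2FC was -0.52 (SE 0.23, edgeR adjusted p 0.460). Its log2FC was -0.18 without NDD replicate 2. Canx, the membrane-bound one, was at 374 and 312 CPM in NDD and at 376, 379 and 439.6 CPM in WT. NDD replicate 1 was below the lowest WT library by a margin smaller than the WT spread (log2FC -0.22, SE 0.15, and -0.08 without NDD replicate 2). Hspa13, a further HSP70-type protein of the ER, was at 31.7 and 31.98 CPM in NDD and at 30.5, 34.6 and 35.5 CPM in WT, so the groups overlapped, and its log2FC was -0.08 (SE 0.14).

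**Figure D2:**
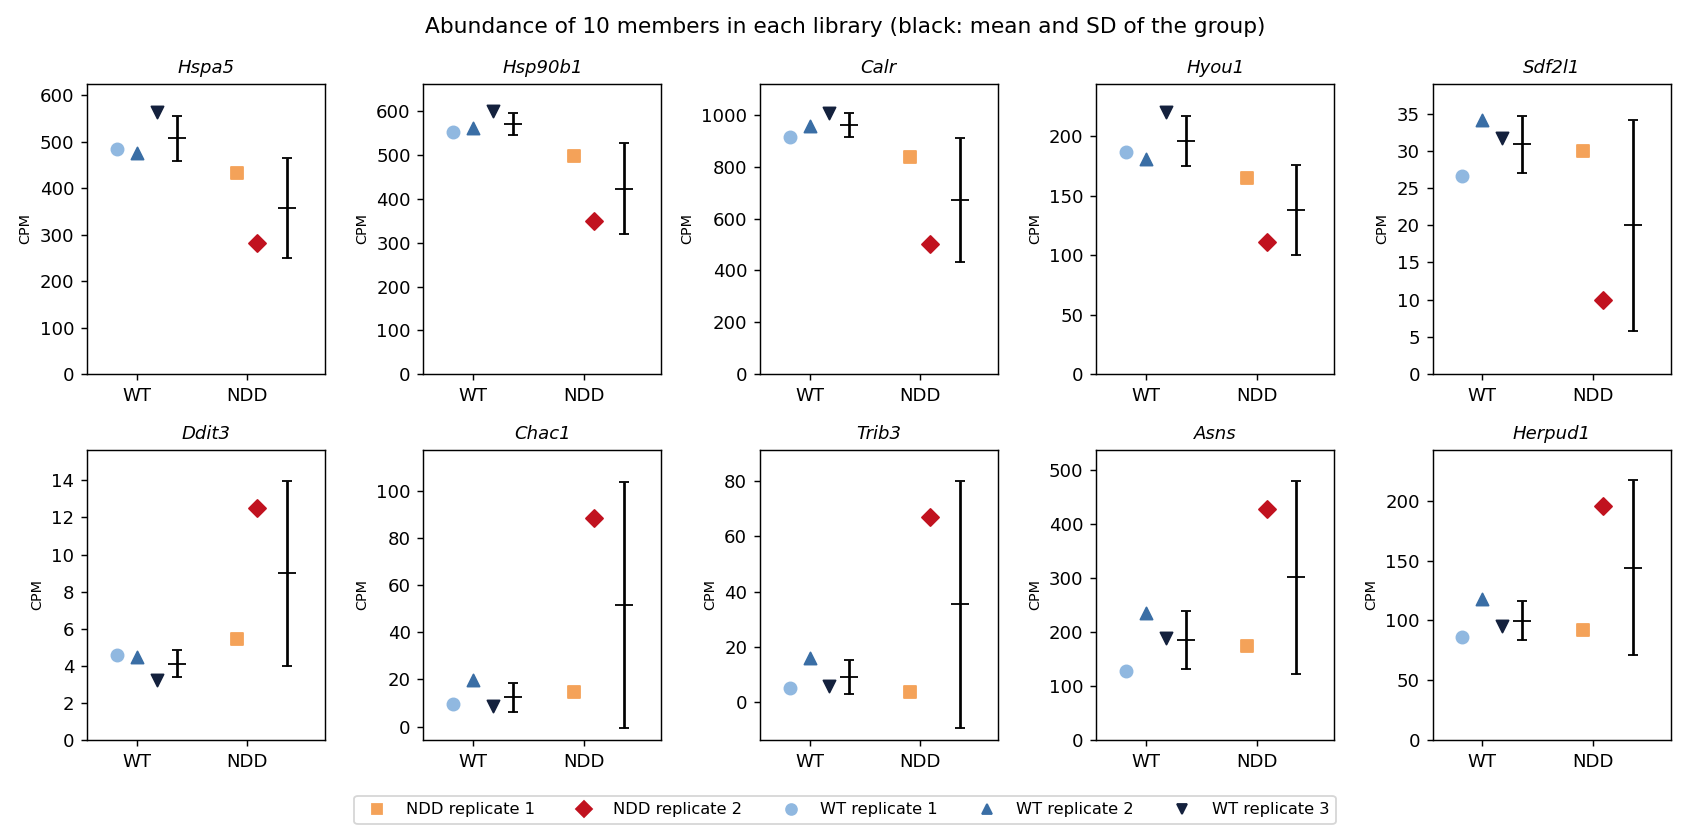
CPM of 10 members in the 3 WT and 2 NDD libraries (symbols as in the legend), each panel on its own linear axis that includes 0; black marks give the group mean and SD. Hspa5, Hsp90b1, Calr and Hyou1 are lowest in NDD replicate 2 and next lowest in NDD replicate 1, whereas Chac1, Trib3, Asns and Herpud1 are high in NDD replicate 2 and within or below the WT range in NDD replicate 1.

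The 4 co-chaperones differed among themselves, and their median log2FC of -0.03 was 0.11 without NDD replicate 2. Sdf2l1, a partner of BiP complexes, had the lowest log2FC of all members, -0.62 (SE 0.44, edgeR adjusted p 0.538). It was at 30.03 and 9.97 CPM in NDD and at 26.7, 34.1 and 31.8 CPM in WT. NDD replicate 2 alone was low, and without that library the log2FC was -0.03. Dnajb9, a J-domain helper of BiP that favours degradation, was at 19.8 and 26.8 CPM in NDD and at 16.4, 21.8 and 17.2 CPM in WT (log2FC 0.33, SE 0.21). Only NDD replicate 2 exceeded the WT range, and without it the value was 0.11. Dnajb11, a J-domain helper that delivers clients to BiP, was at 128.9 and 76.6 CPM in NDD and at 102.8, 102.8 and 106.8 CPM in WT, with the NDD libraries on opposite sides of a narrow WT range and a log2FC of -0.02 (SE 0.22). The value for Dnajb11 was 0.32 without NDD replicate 2 and -0.45 when NDD replicate 1 was left out. Dnajc3, which encodes the PERK inhibitor p58IPK, had a log2FC of -0.04 (SE 0.14), 0.12 without NDD replicate 2, and overlapping groups.

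Among the 5 disulfide isomerases, which form and exchange disulfide bonds, 4 had a log2FC below 0, and the median was -0.32. It was -0.05 without NDD replicate 2. Pdia3, which works with the lectin chaperones, was at 552 and 387 CPM in NDD and at 541, 599 and 664 CPM in WT. Pdia6, which binds IRE1 and BiP, was at 159 and 93.1 CPM in NDD and at 154, 169 and 177 CPM in WT. For both genes NDD replicate 2 was below all WT libraries and NDD replicate 1 was within their range. The log2FC values were -0.36 (SE 0.19, edgeR adjusted p 0.481) for Pdia3 and -0.40 (SE 0.23, edgeR adjusted p 0.494) for Pdia6, and without NDD replicate 2 they were -0.11 and -0.05. Pdia4 followed the same order, with 135.8 and 88.6 CPM in NDD and 133 to 149.7 CPM in WT. P4hb, the classical isomerase and the most abundant of the 5 per length (mean 486 TPM), did not. It was at 574 and 758 CPM in NDD and at 645, 814 and 759 CPM in WT, so here NDD replicate 1 was the lowest library (log2FC -0.15, SE 0.18, and -0.35 without NDD replicate 2). Pdia5 had a log2FC of 0.14 (SE 0.14), 0.22 without NDD replicate 2 and 0.054 without NDD replicate 1.

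Manf and Creld2 encode small proteins that are secreted under ER stress. Manf was at 96.7 and 67.2 CPM in NDD and at 92.97, 114.5 and 109 CPM in WT, and Creld2 was at 33.0 and 16.2 CPM in NDD and at 31.9, 32.04 and 35.5 CPM in WT. NDD replicate 2 was the lowest library for both, and NDD replicate 1 was within the WT range. The log2FC values were -0.37 (SE 0.19, edgeR adjusted p 0.481) and -0.43 (SE 0.30, edgeR adjusted p 0.534), and without NDD replicate 2 they were -0.11 and 0.0069.

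Of the 8 degradation genes, 7 were tested, with a median log2FC of -0.03, and -0.01 without NDD replicate 2. Herpud1, which recruits the ubiquitin ligase complex at the ER membrane, had the highest value, 0.53 (SE 0.32, edgeR adjusted p 0.501). It was at 92.3 and 195.9 CPM in NDD and at 86.3, 118 and 95.5 CPM in WT. NDD replicate 2 was above the WT range and NDD replicate 1 inside it, and the log2FC was -0.10 without NDD replicate 2. Derl1, part of the channel that returns proteins to the cytosol, was at 114.5 and 151 CPM in NDD and at 99.3, 117.9 and 114 CPM in WT (log2FC 0.27, SE 0.16, edgeR adjusted p 0.505, and 0.066 without NDD replicate 2). Syvn1, the ubiquitin ligase HRD1, was at 92.1 and 75.4 CPM in NDD and 89.0 to 101.8 CPM in WT (log2FC -0.22, SE 0.14, and -0.06 without NDD replicate 2). Its partner Sel1l was at 123 and 117 CPM in NDD and 123 to 128 CPM in WT. The groups did not overlap, but the log2FC was only -0.06 (SE 0.11), and -0.01 without NDD replicate 2. Derl2, Edem1 and Edem2, of which the Edem proteins pick out misfolded glycoproteins, had log2FC values of -0.06, -0.03 and 0.06 with overlapping groups. Without NDD replicate 2 these values were 0.12, -0.18 and 0.0083. Derl3 was at 0.38 to 1.21 TPM across the libraries. It did not pass the filter on low counts, so a difference in it was not tested.

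The 4 outputs of the ATF4 and CHOP arm had the highest role median of the members, 1.34, and all 4 had a log2FC above 0. This value rested on NDD replicate 2: the median was -0.18 without it and 2.00 without NDD replicate 1. It was 0.79 with limma-voom, on log2(TPM + 1) and with the replicate block. Chac1, which breaks down glutathione, was at 14.7 and 88.3 CPM in NDD and at 9.42, 19.6 and 8.58 CPM in WT. NDD replicate 1 was between the WT values and NDD replicate 2 above all of them. The log2FC of Chac1 was 2.04 (SE 0.73, unadjusted p 0.0310, edgeR adjusted p 0.437), and 0.25 without NDD replicate 2. Trib3, a pseudokinase that restrains ATF4 and CHOP, was at 3.89 and 66.96 CPM in NDD and at 5.18, 16.1 and 5.83 CPM in WT, so that the NDD libraries were the lowest and the highest of all and differed by 17.2-fold. Its log2FC was 1.96 (SE 1.05, edgeR adjusted p 0.481), -1.20 without NDD replicate 2, 0.99 on log2(TPM + 1) and 0.93 with the replicate block. Asns, which makes asparagine, was at 175 and 428 CPM in NDD and at 129, 236 and 189.5 CPM in WT (log2FC 0.71, SE 0.41, edgeR adjusted p 0.493, and -0.07 without NDD replicate 2). Ppp1r15a, which encodes GADD34, the subunit that ends the translation block, was at 20.5 and 45.7 CPM in NDD and at 21.8, 28.2 and 25.5 CPM in WT (log2FC 0.39, SE 0.33, and -0.29 without NDD replicate 2).

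WT libraries also differed in these genes. The highest WT library exceeded the lowest by 3.12-fold for Trib3, 2.29-fold for Chac1 and 1.84-fold for Asns, and WT replicate 2 was the highest in each. Among the 6 chaperones the largest such ratio was 1.22-fold, in Hyou1.

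**Figure D3:**
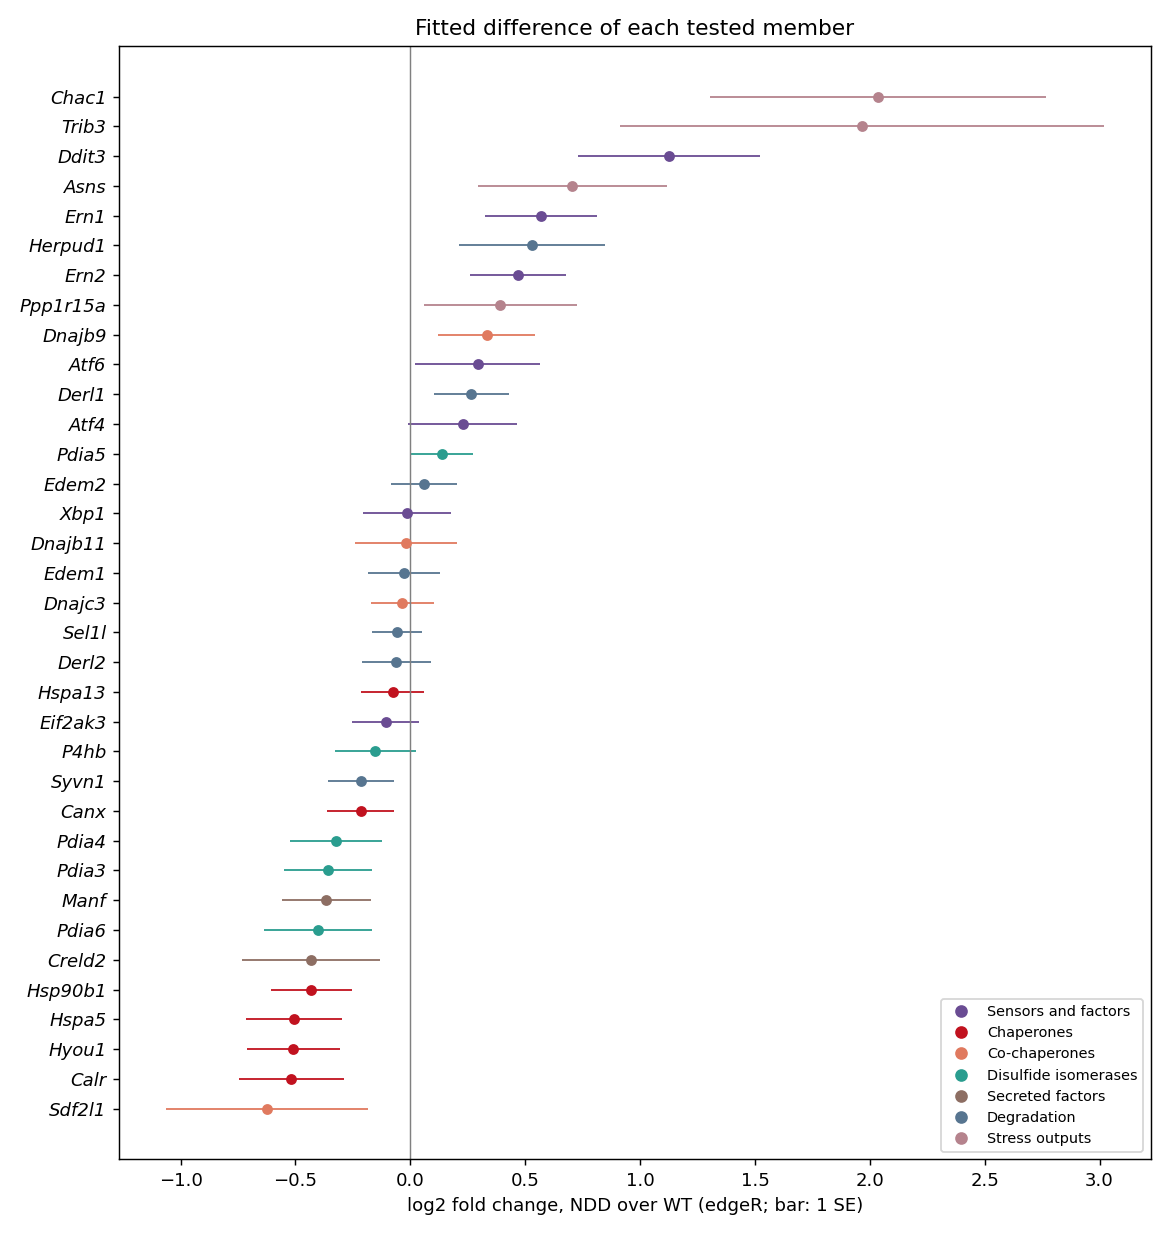
Log2FC of each tested member, NDD over WT, with 1 SE from edgeR; colours mark the role and genes are sorted by value. Values run from -0.62 (Sdf2l1) to 2.04 (Chac1). Chac1 and Trib3 have the highest values and the widest bars, the other stress outputs lie above 0 and the chaperones below 0.

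With 1 NDD library left out, the other is compared with the 3 WT libraries and its spread is assumed to be that of the WT group, so these fits describe a library and not the genotype. For NDD replicate 2 alone, edgeR called 13 of 35 members, where 8.62% of all tested genes were called. Of these, 5 were higher, namely Atf6, Ddit3, Ern1, Herpud1 and Ppp1r15a, against 2.96% of all genes. The 8 that were lower were Calr, Creld2, Hsp90b1, Hspa5, Hyou1, Pdia4, Pdia6 and Sdf2l1, against 5.66% of all genes. The largest of these log2FC values in size was in Sdf2l1, at -1.64 (adjusted p 0.0175), and Ddit3 was at 1.60 (adjusted p 0.0331). Trib3 and Chac1 had higher values, 2.88 and 2.81, and were not called, with adjusted p of 0.0984 and 0.0555. For NDD replicate 1 alone, 0 of 35 members were called, against 0.0866% of all tested genes (0.0722% higher and 0.0144% lower), and 1 member (Dnajb11, log2FC 0.32) had an unadjusted p under 0.05.

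**Figure D4:**
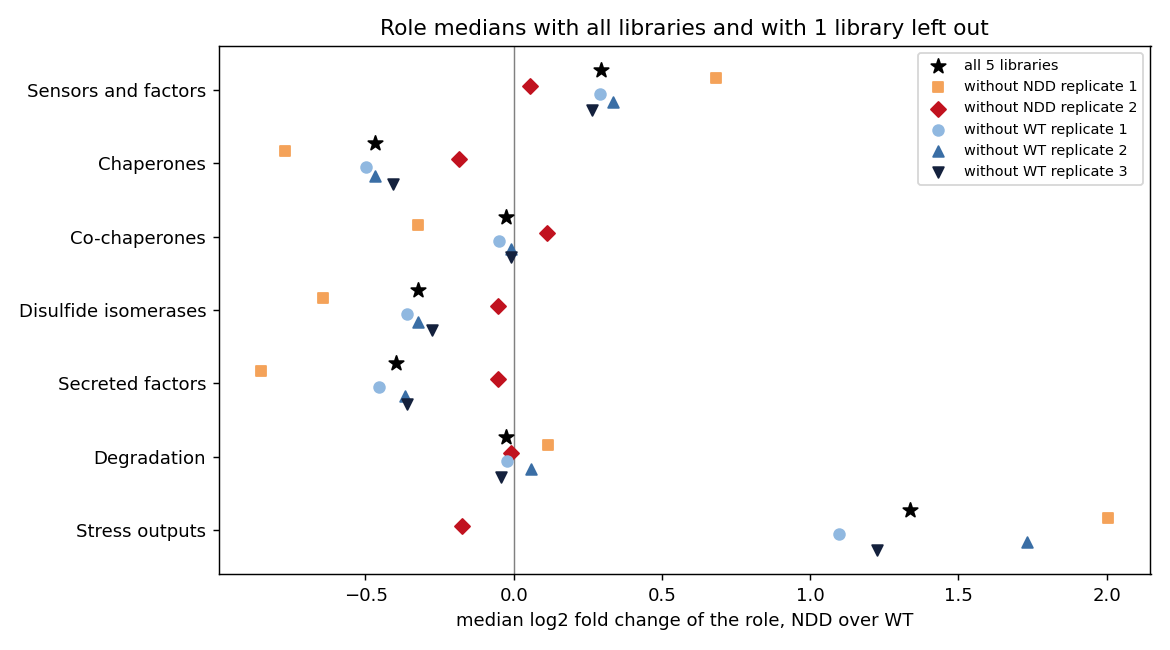
Median log2FC of the tested members of each role, NDD over WT, with all 5 libraries (star) and with each library left out in turn. Without NDD replicate 2 the stress outputs move from 1.34 to -0.18 and the chaperones from -0.47 to -0.18, whereas leaving out a WT library keeps the chaperone median between -0.50 and -0.41.

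The differences were also set beside the promoter letters shown above. All 8 tested members with the ER stress element had a log2FC below 0, with a median of -0.42, while of the 21 tested members with a window but not this form of the element, 10 were below 0 and the median was 0.06. The 21 include both members with the second form, Herpud1 at 0.53 and Dnajb11 at -0.02, and of the 6 other tested genes with that form 5 were above 0 (median 0.18). The 8 ranged from -0.52 in Calr to -0.04 in Dnajc3. Of the 9 tested genes with the first form that are no members, 4 were below 0 and 5 above, with a median of 0.07. Without NDD replicate 2, 6 of the 8 were below 0 and their median was -0.07. All 4 members with the ATF4 composite site were above 0 and had a median of 1.34, but without NDD replicate 2 only Chac1 was above 0 and the median was -0.08. Of the 10009 tested genes with a window, 51.9% were below 0. Members share a role as well as a motif, and no binding was measured.

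The other genes of the pathway were followed in 5 lists of 133 genes that are no members, of which 131 were tested. None had an adjusted p under 0.05, and 11 had an unadjusted p under 0.05, which is 8.4% against 11.2% of all tested genes. The list of the amino acid response, which holds further targets of ATF4 and related factors, is given first. Of its 27 genes 25 had a log2FC above 0, with a median of 0.45 (3 with an unadjusted p under 0.05, all higher, or 11.1% against 11.2% of all genes). Without NDD replicate 2 the median was -0.15 and 7 of the 27 were above 0. In NDD replicate 2 all 27 lay above the WT range, where 38.1% of all genes did, and in NDD replicate 1 only 1 did and 12 lay below it. Nupr1, a stress-induced chromatin protein, was at 121 and 285 CPM in NDD and at 93.6, 114 and 74.1 CPM in WT, with both NDD libraries above the WT range (log2FC 1.11, SE 0.37, edgeR adjusted p 0.424, and 0.38 without NDD replicate 2). Atf5, a factor made under the same translational control as ATF4, was at 51.9 and 315 CPM in NDD and at 51.0, 67.4 and 37.1 CPM in WT, so only NDD replicate 2 was high (log2FC 1.82, SE 0.68, edgeR adjusted p 0.437, and 0.016 without that library).

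**Figure D5:**
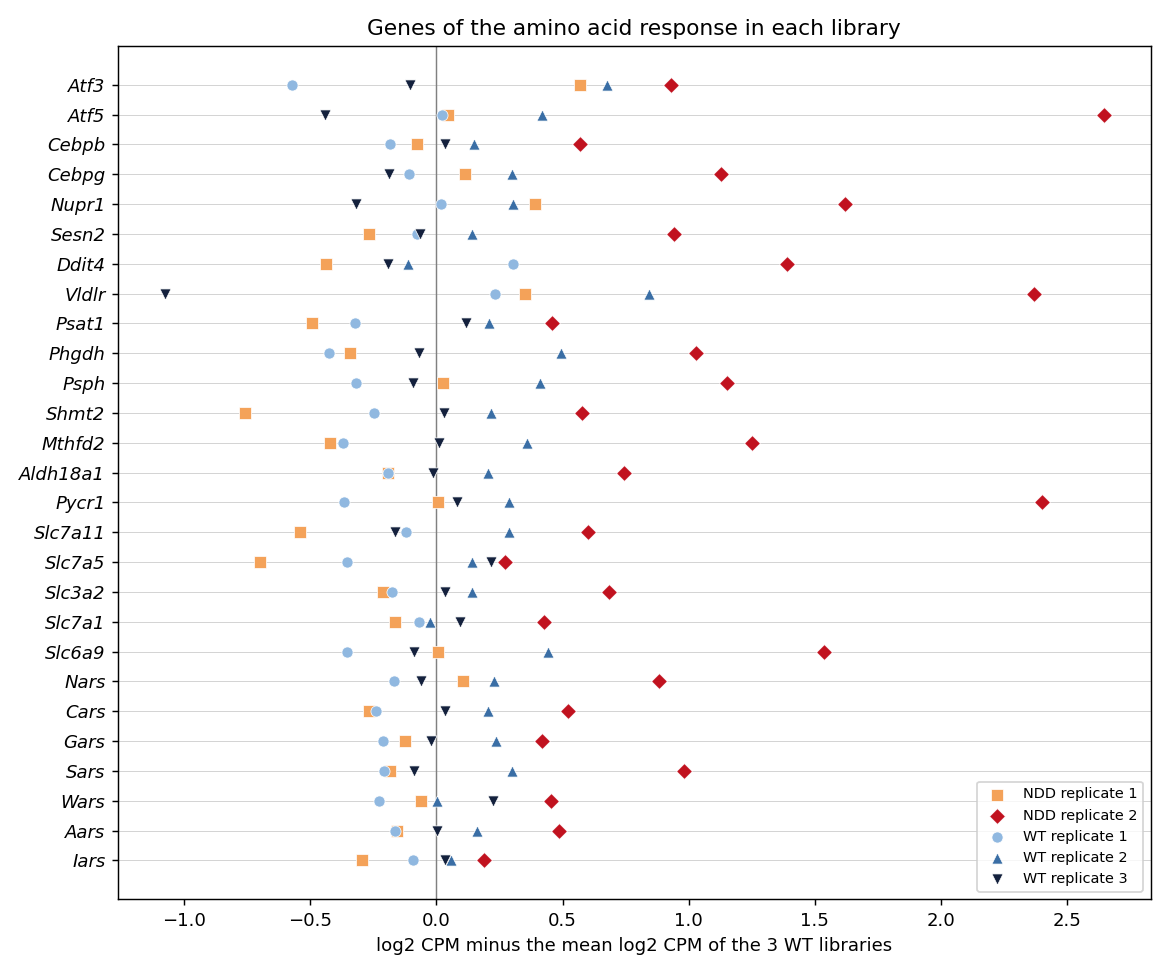
Each row is a gene of the amino acid response list and each symbol a library, on the scale of log2 CPM minus the WT mean. All 27 symbols of NDD replicate 2 lie to the right of the WT symbols, and those of NDD replicate 1 lie mostly among or to the left of them.

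The other regulators of the response (17 genes) had a median log2FC of 0.05, with 1 gene at an unadjusted p under 0.05. That gene was Creb3l1, a membrane-bound factor related to ATF6 that is also on the goblet list, at 319.5 and 363 CPM in NDD and at 183, 247 and 137 CPM in WT (log2FC 0.85, SE 0.25, edgeR adjusted p 0.390). Both NDD libraries were above the WT range. Crebrf, a further regulator, had a log2FC of 0.68 (SE 0.32, edgeR adjusted p 0.466), and 0.17 without NDD replicate 2. The folding and oxidation list (30 genes, 28 tested) had a median of -0.02, with 14 genes above and 14 below 0. Qsox1, a sulfhydryl oxidase, was at 38.2 and 43.5 CPM in NDD and at 60.0, 70.8 and 71.2 CPM in WT. Here the 2 NDD libraries were alike and both low (log2FC -0.72, SE 0.15, edgeR adjusted p 0.223). Agr2, the isomerase that goblet cells need to make mucin, is also on the goblet list. It was at 185 and 249.8 CPM in NDD and at 160.4, 161 and 129 CPM in WT (log2FC 0.53, SE 0.18, edgeR adjusted p 0.435, and 0.32 without NDD replicate 2).

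The degradation list of 28 further genes had a median log2FC of 0.11. Erlec1, a lectin of the degradation pathway, was at 38.8 and 58.3 CPM in NDD and at 27.3, 30.1 and 21.96 CPM in WT, above the WT range in both NDD libraries (log2FC 0.88, SE 0.23, edgeR adjusted p 0.335, and 0.57 without NDD replicate 2). Ube2j2, a ubiquitin-conjugating enzyme of the ER, had a log2FC of -0.41 (SE 0.18, edgeR adjusted p 0.460), and -0.18 without NDD replicate 2. The list of translocon, signal peptide and glycosylation genes held 31 genes, of which 26 were below 0, with a median of -0.16. The groups did not overlap for 15 of them, 14 with NDD below, against 16.2% of all genes with NDD below. Without NDD replicate 2 the list medians were -0.09 here, 0.039 for degradation, 0.0020 for folding and oxidation and 0.031 for the regulators. Sec11c, a subunit of the signal peptidase, was at 17.8 and 24.9 CPM in NDD and at 37.6, 40.8 and 35.9 CPM in WT. Both NDD libraries were low (log2FC -0.83, SE 0.19, edgeR adjusted p 0.275). Srp54a, a subunit of the signal recognition particle with near-identical copies in the mouse genome, had a log2FC of -0.93 (SE 0.24, edgeR adjusted p 0.345), and its value is uncertain because reads could be split among the copies.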

How the data were processed

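Polyadenylated RNA of 5 colon spheroid cultures was sequenced after a stranded library kit, per the labels' protocols. Bowtie2, RSEM and mm10 are named in the submitters' processing notes, and versions, settings and the annotation are not given in the sources used here. The authors deposited estimated counts per gene as whole numbers, without normalization, and TPM scaled by the authors to transcript length and library. All value columns matched a sample title (0 unmatched).

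Counts were tested with edgeR 4.0.16 (R 4.3.3) by the quasi-likelihood test with a robust prior, TMM factors, genes kept by filterByExpr, and Benjamini-Hochberg adjustment over 13501 genes, calling an adjusted p under 0.05. The plan named counts, and the test was kept for estimated counts. CPM use TMM-scaled totals. The SE is the size of the log2 value over the root of the F statistic. Alternatives were upper-quartile or RLE factors, 10 counts in every library or no filter, a non-robust prior, DESeq2 1.42.0, limma-voom (limma 3.58.1), limma on log2(TPM + 1) and log2(TPM + 0.1), the replicate block, and each library left out. The code was tested on simulated counts.

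Members and lists were chosen with earlier results of these data known. Values per library are given for the 7 sensors and factors and, in each other role, for the most abundant member, the 2 with the smallest p and any with an unadjusted p under 0.05. The 2 genes with the smallest p are named in each further list. Other members and genes were named after their values were seen. Of 242 list entries, 7 were matched through older symbols. In GENCODE transcripts, 4 members (Hsp90b1, Dnajb9, Derl1 and Eif2ak3) shared 5% or more of their 31-base words with another gene, at most 11.9%. Protein sequences were not used here.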

Additional observations from a re-analysis of the deposited data

How the results depend on the processing

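No member was called under any alternative with both NDD libraries, and 13 were called without NDD replicate 1, so the number called ranged from 0 to 13 when 1 library was left out. The median log2 fold change of the members kept its sign in every fit and ranged from -0.08 to -0.02 when 1 library was left out and from -0.065 to -0.014 otherwise. The ratio of summed TPM was 0.889 from CPM, 0.902 without Hspa5 and 0.854 to 0.918 when 1 library was left out. Over all genes, 12 were called, against 58 with no filter, 4 with 10 counts required in every library, 357 with DESeq2, 24 with limma-voom, 33 with the replicate block, and 0 to 1207 when 1 library was left out (0 without WT replicate 1, 1207 without NDD replicate 1). Of the members, 4 had an unadjusted p under 0.05, against 7 with no filter (20.0%, where 9.25% of all genes did) and with DESeq2 (20.0%, 12.9%), 2 with the block (5.71%, 6.98%) and 1 on log2(TPM + 1) (2.86%, 10.5%). Leaving out NDD replicate 1 gave 24 (68.6%, 30.1%), and the count was 1 without NDD replicate 2 (2.86%, 7.34%) or WT replicate 2 (2.86%, 7.48%), and 0 without WT replicate 1 or 3 (9.09% and 5.14% of all genes). Alternatives for the unadjusted p and for role medians, promoter sets and further lists were added after seeing the data. The median of the stress outputs was 0.79 with limma-voom, on log2(TPM + 1) and with the block, and 0.80 on log2(TPM + 0.1).

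Xbp1 had a log2 fold change of 0.0090 with upper-quartile factors, against -0.02. When 1 library was left out, signs changed for Xbp1 (-0.26 to 0.20), Atf4 (-0.18 to 0.55), Atf6 (-0.25 to 0.69), Eif2ak3 (-0.28 to 0.056), Dnajb11 (-0.45 to 0.32), P4hb (-0.35 to 0.028), Creld2 (-1.04 to 0.0069), Herpud1 (-0.10 to 0.97), Asns (-0.066 to 1.20) and Trib3 (-1.20 to 2.88). Signs also changed for Dnajc3 (-0.19 to 0.12), Derl2 (-0.25 to 0.12), Edem1 (-0.18 to 0.12) and Ppp1r15a (-0.29 to 0.85), so 14 of the 35 tested members changed sign under at least 1 alternative and 21 did not.

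Replicate numbers are shared between groups, but the labels do not say what they mark. Deviations from the group mean in same-numbered libraries correlated at 0.0093 and 0.31. With 2 NDD libraries, the NDD deviations mirror each other, so these are not independent checks, and numbers were taken as names only. The amino acid response list had median deviations from the WT mean of 0.88 in NDD replicate 2 and 0.23 in WT replicate 2. They were -0.17 in NDD replicate 1, and -0.19 and -0.02 in WT replicates 1 and 3. The part of the replicate number in these values was not tested. Under the replicate block 0 members were called and 11 of the 12 genes stayed called. The 2 members with an unadjusted edgeR p under 0.05 in that fit were Asns (log2 fold change 0.65, p 0.0112, adjusted p 0.431) and Chac1 (1.43, p 0.0128, adjusted p 0.461). Derl3 did not pass the filter on low counts and was not tested in the main fit.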

Other observations

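Folding genes outside the ER were examined in lists written after the results above were seen, so they are given as a description with no test of the lists. All 11 cytosolic heat shock genes had a log2 fold change (log2FC) below 0, with a median of -0.44 (-0.34 without NDD replicate 2, again with all 11 below 0), and for 6 of them both NDD libraries lay below every WT library (54.5%, against 16.2% of all genes with NDD below). Hspa1b, an inducible HSP70 of the cytosol, was at 17.5 and 16.0 CPM in NDD and at 40.3, 34.0 and 60.7 CPM in WT (log2FC -1.43, SE 0.27, edgeR adjusted p 0.207). It was about equally low in both NDD libraries, whereas Hspa5, Hsp90b1, Hyou1 and Calr were lower in NDD replicate 2. Its near-copy Hspa1a, with which reads could be split, had a log2FC of -1.47 (SE 0.39, edgeR adjusted p 0.346). Hsp90aa1, the inducible HSP90 of the cytosol, was at 430.2 and 219 CPM in NDD and at 490.4, 505 and 703 CPM in WT, with a log2FC of -0.80, and -0.38 without NDD replicate 2. The 10 mitochondrial folding and protease genes had a median of -0.09. Hspe1, the mitochondrial HSP10, was at 75.8 and 63.0 CPM in NDD and at 108, 95.2 and 116 CPM in WT (log2FC -0.62, SE 0.15, edgeR adjusted p 0.307). None of these genes had an adjusted p under 0.05.

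Among all 37 genes whose window held the ER stress element, 28 are no members, and 9 of these were tested. They had a median log2FC of 0.07, with 4 below 0 and 5 above. Of the 266 tested genes that are no members and hold the letters of the ATF4 composite site, 168 were above 0, with a median of 0.11. The other 98 (36.8%) were below 0, against 51.9% of all tested genes with a window. A value without NDD replicate 2 was not computed for this set. Ero1l, an oxidase of the ER on the folding list, singled out after its values were seen, was at 101 and 804 CPM in NDD and at 186, 379.8 and 130.4 CPM in WT, with a log2FC of 0.96 (SE 0.83), -1.19 without NDD replicate 2, and the NDD libraries at both ends of the range.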
